A study of Mus musculus with 3 samples.

Results

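The comparison described here is that of organoids grown with CHIR99021 and DAPT (ENR+CD) against conventional organoids (ENR), across the genes other than those whose symbol starts with Defa. The members were all 23258 such genes of the 23271 in the merged count table, since 13 Defa genes were left out, and they were read in 2383 ENR+CD cells and 2545 ENR cells that held at least 1000 and under 8000 UMIs (unique molecular identifiers, each counting 1 captured mRNA molecule) and 400 or more genes. Both libraries were made with Seq-Well, in which single cells settle into nanowells with barcoded beads that capture mRNA by its poly(A) tail. Mouse small intestinal crypts of C57BL/6 animals were first grown into a culture rich in intestinal stem cells (ISCs), and cells of 1 donor culture were then split between media. ENR medium held EGF, Noggin and R-spondin 1, ENR+CD medium held these with CHIR99021 and DAPT, and the other library, ENR+CV, held them with CHIR99021 and valproic acid and is quoted only beside the other 2. Each condition was 1 library on 1 array, so the medium cannot be told apart from the array, conditions were not tested against each other and p-values are absent.

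CHIR99021 inhibits GSK3, the kinase that marks beta-catenin for destruction, and so switches on Wnt target genes without a ligand. DAPT inhibits gamma-secretase, the protease that frees the active part of Notch receptors. In the crypt, Wnt signals from Paneth cells (PCs) and stroma keep ISCs dividing, Notch signals hold back the secretory fate, and PCs themselves need Wnt to mature. Enteroendocrine cells (EECs) and goblet cells are the other main secretory lineages, and enterocytes are the absorptive lineage.

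The kept cells held 4945799 UMIs outside the Defa genes in ENR and 4057950 in ENR+CD. The median cell had 1553 UMIs in ENR and 1543 in ENR+CD, and sequencing gave 15.3 and 18.3 reads per UMI. Of all UMIs, 2.93% in ENR and 10.6% in ENR+CD lay on the Defa genes, which is why they were taken out of the total before scaling. The 2 libraries shared 1 cell barcode. The deposited per-sample tables go against the labels: the 2506 merged cells named ENR+CD are all in the deposit of the ENR+CV sample, and the 1092 merged cells named ENR+CV are all in that of the ENR+CD sample. The names of the merged table were followed here. Under the other reading the PC genes Lyz1 and Mmp7 had log2 ratios of -1.34 and -1.63 against ENR, and what else the other reading gives is set out with the alternatives. Levels are UMIs per 1000000 outside the Defa genes (CPM), with exact Poisson 95% intervals. Ratios have exact binomial 95% intervals, and all intervals cover counting error only, since PCR copies and array effects are not in them. In summed libraries, fewer cells of a type and less RNA per cell cannot be told apart.

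Epcam, the adhesion molecule of epithelium, stood at 1248 CPM in ENR and at 1330 in ENR+CD. Krt8, Krt18 and Cdh1, further epithelial genes, also differed by less than 1.5-fold. Most markers of other tissues were near 0. Of 11 immune genes in the table, 8 had no UMI in ENR+CD, and Ptprc, which defines leukocytes, had 1 UMI in each library, but Itgam, an integrin of myeloid cells, stood at 40.6 CPM in ENR and at 30.6 in ENR+CD. Of 15 stromal and endothelial genes, 6 had no UMI in ENR and 6 none in ENR+CD, Pecam1 of endothelium had 3 UMIs in ENR and 6 in ENR+CD, and Acta2, an actin of smooth muscle, stood at 18.2 and 11.8 CPM. The red blood cell genes together had 0 UMIs in ENR+CD. Doublets were neither scored nor removed, and free RNA that wells may share was not measured.

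Calls required a CPM ratio of 2 or more, Poisson intervals that did not meet, and 20 or more UMIs over both libraries. Of 12186 genes that reached 20 UMIs, 1528 (12.5%) were higher in ENR+CD and 930 (7.63%) were lower, while 9728 were neither. The higher genes took 19.6% of the ENR+CD UMIs outside the Defa genes against 4.35% in ENR. The lower genes took 2.33% of the ENR+CD UMIs against 7.77% of those of ENR. At least 10-fold differences were seen for 151 higher and 97 lower genes. With a library under 3 UMIs set to 3, the median log2 ratio of all measured genes was 0.11, so the typical gene sat slightly above equality and list medians are given beside it. Just under the 2-fold line, 122 genes with separate intervals had a ratio of ENR+CD to ENR of 1.9 to 2.0, and just over it 111 had 2.0 to 2.1. The medians of the ISC, Notch, metal and epithelial lists given below lie nearer to 0 than the scalings moved the median of all genes, and so carry no direction. The split moved with the scaling too: 62.2% of called genes were higher as scaled here, 47.5% with mitochondrial and ribosomal protein genes also taken out of the total, 52.2% under TMM scaling and 70.8% with the other defensins and secreted Paneth products taken out.

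**Figure D1:**
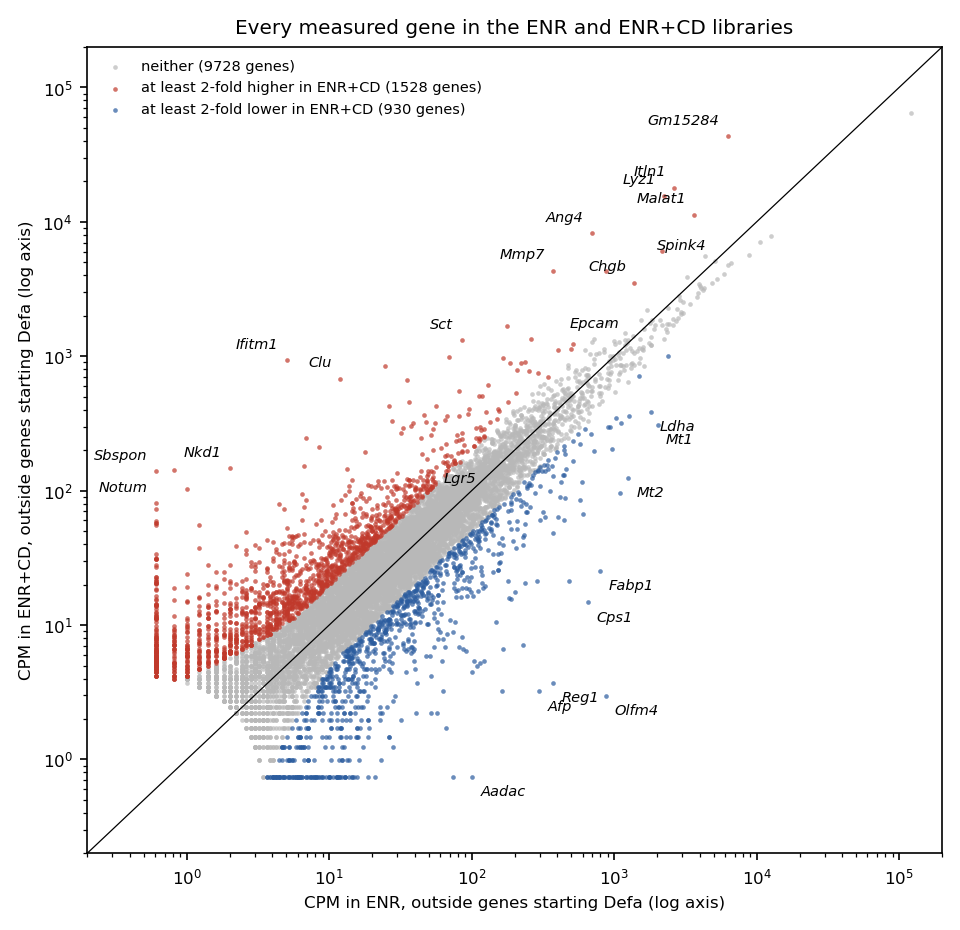
Each point is 1 of the 12186 genes with at least 20 UMIs in the pair, with its CPM in ENR on the x axis and in ENR+CD on the y axis, both on log axes and with a library under 3 UMIs drawn at 3. Red genes were at least 2-fold higher in ENR+CD (1528), blue genes at least 2-fold lower (930), and Ifitm1 and Olfm4 lie far from the line of equality on either side.

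The largest ratios among genes of at least 100 UMIs were of genes nearly silent in ENR. Sbspon, a secreted matrix protein on chromosome 1, had 1 UMI in ENR and 566 in ENR+CD (139 CPM, interval 128 to 151), a ratio of 690 with an interval of 123 to 27295. Ifitm1, an interferon-inducible membrane protein on chromosome 7, rose from 5.05 to 940 CPM, 186-fold (126 to 288), with 258 CPM in ENR+CV. Neb, the giant actin-binding protein nebulin, stood at 0.809 CPM in ENR against 142 in ENR+CD. These 3 genes differed by 2 orders of magnitude, and Ifitm1 was by far the most abundant of them in ENR+CD.
Hdc, which makes histamine, rose from 1.01 to 102 CPM. Rgs5, a brake on G protein signalling, Cdh13, a membrane-anchored cadherin, and Gm12524, which GENCODE lists as a lincRNA, had 3 UMIs each in ENR and 57.9, 57.2 and 59.6 CPM in ENR+CD. Wfdc18, a small secreted protease inhibitor, had no UMI in ENR and 55.2 CPM in ENR+CD, at least 91.0-fold higher with 3 UMIs set for ENR. Robo1, a Slit receptor, had 3 UMIs in ENR and 31.1 CPM in ENR+CD, a ratio of 51.2 (17.1 to 252). Several of this group were low in ENR+CV as well: Sbspon stood there at 1.71 CPM and Gm12524 and Rgs5 at 0.341 CPM each. Cdh13, at 5.8 CPM in ENR+CV against 0.607 CPM in ENR, was called higher there by the same rule, and Neb stood at 73.0 CPM.

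The Wnt target list held 26 genes, of which 23 were measured, 11 were higher, 2 were lower and 10 were neither, with a median log2 ratio of 0.68. The higher members were mainly feedback inhibitors and transcription factors. Notum, a secreted enzyme that inactivates Wnt ligands (chromosome 11, positions 120653788 to 120661175 of GRCm38), had 3 UMIs in ENR and 328 in ENR+CD, 133-fold (45.2 to 649). Nkd1, which blocks Dishevelled, went from 2.02 to 147 CPM, 72.5-fold (39.2 to 152). Lef1, a nuclear partner of beta-catenin, had 1 UMI in ENR and 125 in ENR+CD. Secreted Wnt antagonists behaved alike: Wif1 had 1 UMI in ENR against 22.7 CPM in ENR+CD, and Dkk3, of the Dickkopf family, had none in ENR against 27.8 CPM, at least 45.9-fold higher with 3 UMIs set for ENR.
Prox1, a homeobox factor, rose from 8.49 to 210 CPM, 24.7-fold (18.1 to 34.5). Tnfrsf19, a receptor of ISCs, stood at 6.67 and 76.1 CPM, Bambi, a decoy BMP receptor, at 8.09 and 56.9 CPM, and Sp5, a zinc finger repressor, at 14.6 and 80.3 CPM. The membrane ligases Rnf43 and Znrf3, which remove Wnt receptors, were 2.44-fold (2.13 to 2.79) and 2.14-fold (1.59 to 2.89) higher. Other textbook targets did not pass. Axin2, the scaffold of the destruction complex, stood at 122 and 179 CPM (1.46-fold, 1.31 to 1.63), and Sox9, a factor of crypt base cells, at 158 and 254 CPM.
The stem cell receptor Lgr5 stood at 124 and 93.9 CPM, Ccnd1 (cyclin D1) at 155 and 89.5 CPM, and Cd44, a surface glycoprotein, at 73.2 and 76.9 CPM. Ephb2 and Ephb3, guidance receptors of the crypt, differed by less than 1.6-fold, as did Tcf7, Tcf7l2 and Cdx2. The 2 lower members were Myc, a driver of growth, at 105 against 46.6 CPM, and Ascl2, an ISC factor, at 56.8 against 24.6 CPM. Apcdd1, Dkk2 and Nkd2 had under 20 UMIs and were not measured. In ENR+CV, which also holds CHIR99021, Axin2 stood at 260 CPM, Nkd1 at 32.7 CPM, Prox1 at 112 CPM, Lef1 at 22.2 CPM and Notum at 2.39 CPM.

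Promoters in RefSeq (GRCm38.p6, 250 bases before the start to 50 after it) were found for 15 of the 23 measured Wnt targets. They were searched for the TCF/LEF core motifs CTTTGAT and CTTTGAA on both strands, which 9.88% of the 27025 genes with a promoter entry hold in at least 1 entry. Only Sp5 and Tnfrsf19 held a match in these windows, and they are shown because both were higher, with the match in capitals and the minus strand match as its reverse complement.
Sp5 (chr2:70474673-70474972, plus strand): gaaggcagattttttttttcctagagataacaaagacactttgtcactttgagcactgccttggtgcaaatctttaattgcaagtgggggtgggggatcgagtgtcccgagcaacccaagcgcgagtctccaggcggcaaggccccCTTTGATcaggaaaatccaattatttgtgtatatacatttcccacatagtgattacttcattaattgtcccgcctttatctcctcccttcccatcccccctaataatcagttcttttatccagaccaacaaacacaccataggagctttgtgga
Tnfrsf19 (chr14:61037938-61038237, minus strand): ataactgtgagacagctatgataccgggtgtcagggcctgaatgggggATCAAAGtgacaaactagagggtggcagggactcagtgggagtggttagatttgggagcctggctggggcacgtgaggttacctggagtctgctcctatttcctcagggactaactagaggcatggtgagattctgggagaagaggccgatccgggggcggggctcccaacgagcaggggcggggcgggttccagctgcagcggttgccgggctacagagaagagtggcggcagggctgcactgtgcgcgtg
Each window held 1 match, and both genes also stood above ENR in ENR+CV, Sp5 at 60.7 CPM and Tnfrsf19 at 78.8 CPM. Under 80% of the listed genes had an entry, so no share is given for the list. Over all called genes, 88 of 1162 higher genes with an entry (7.57%) and 66 of 651 lower ones (10.1%) held a motif. Among all measured genes, 686 of 9495 with an entry (7.22%) did. These sets also had entries for under 80% of their genes, and whether the motif goes with the calls was not tested.

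Among 18 measured Wnt ligands, receptors and pathway genes, 7 were higher, 1 was lower and the median log2 ratio was 0.67. Wnt6, a secreted ligand, had no UMI in ENR and 296 in ENR+CD, with 2.73 CPM in ENR+CV, so it was at least 120-fold higher in ENR+CD with 3 UMIs set for ENR. Wnt10a, another ligand, had none in ENR and 48 UMIs in ENR+CD. Wnt3, the ligand that PCs are known to make for ISCs, rose from 10.7 to 49.0 CPM, 4.58-fold (3.36 to 6.32). Their partners moved too: Wls, which carries Wnts to the surface, was 2.37-fold higher, Lgr4, an R-spondin receptor, 2.95-fold higher, and the receptors Fzd3 and Fzd6 2.87-fold and 2.77-fold higher.
Fzd5, a receptor that PCs are known to need, fell from 49.7 to 15.8 CPM, 3.15-fold (2.39 to 4.22). Ctnnb1 (beta-catenin) at 236 and 325 CPM, Gsk3b at 76.4 and 117 CPM, and Apc at 60.5 and 80.1 CPM did not pass. Wnt3a had no UMI in either library, and Wnt4, Wnt7b, Wnt9a, Wnt9b, Wnt11, Wnt5a, Wnt5b and Fzd4 had under 20.

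**Figure D2:**
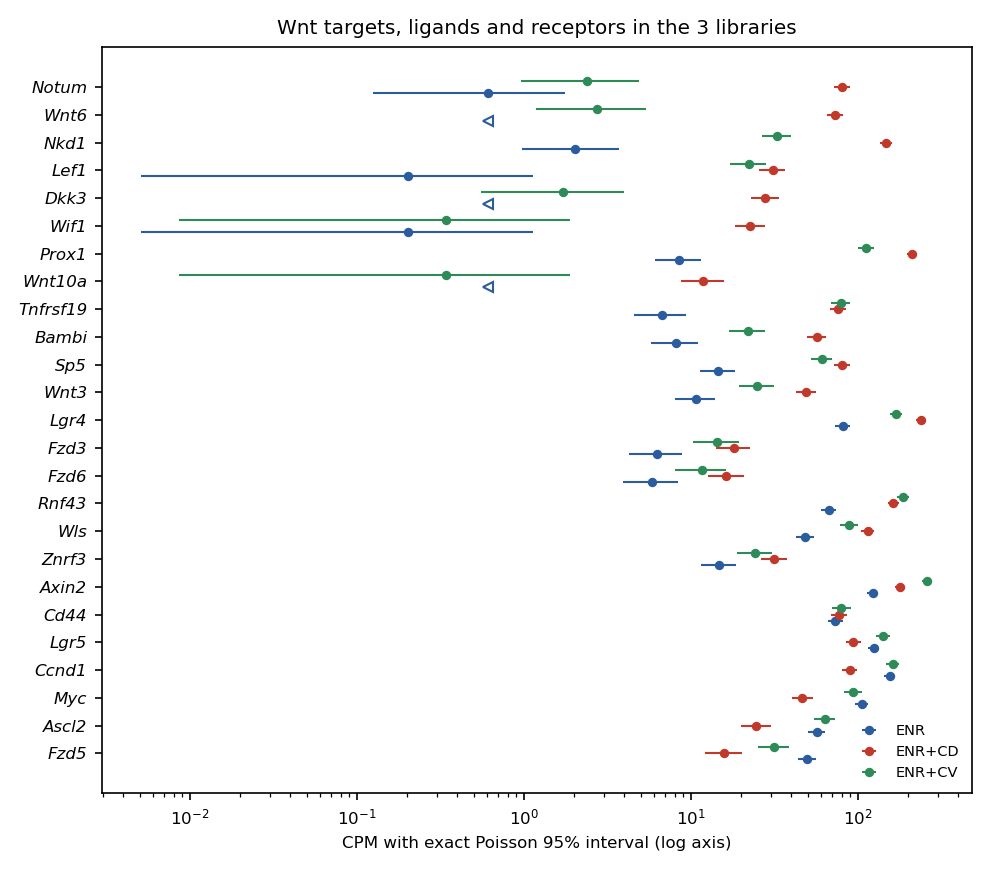
CPM on a log axis of the called members of the Wnt target and Wnt ligand and receptor lists, with Lgr5, Axin2, Ccnd1 and Cd44, in ENR (blue), ENR+CD (red) and ENR+CV (green), with exact Poisson 95% intervals and open triangles at 3 UMIs where a library had none. Notum, Wnt6 and Nkd1 lie far to the right in ENR+CD, while Myc, Ascl2 and Fzd5 lie left of ENR.

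Of 17 measured Notch pathway genes, 0 were higher, 2 were lower and the median log2 ratio was -0.07. Nrarp, a direct Notch target that limits the pathway, fell from 12.1 to 1.73 CPM, 7.03-fold (3.21 to 18.2). Jag2, a ligand, fell from 7.08 to 1.73 CPM. Hes1, the main Notch effector in crypts, stood at 143 and 105 CPM, with 654 CPM in ENR+CV, and its difference between ENR and ENR+CD (1.36-fold, 1.21 to 1.54) did not reach the 2-fold line. The receptor Notch1 stood at 30.1 and 18.0 CPM, and Notch2 at 8.69 and 12.1 CPM. Genes of the protease that DAPT inhibits stayed close, with Psen2 at 13.1 and 12.1 CPM, Ncstn at 42.7 and 68.3 CPM and Aph1a at 11.3 and 10.1 CPM. Rbpj, the DNA-binding partner of Notch, stood at 10.3 and 18.7 CPM. Lfng, Maml1, Adam10, Adam17, Dtx4, Jag1 and Numb were also not called. Hes5, Hey1, Hey2, Dtx1, Notch3 and Notch4 had under 20 UMIs.
Of 18 measured secretory fate genes, 7 were higher, 0 were lower and the median log2 ratio was 0.88. Atoh1, the factor that opens the secretory fate, stood at 10.9 and 19.2 CPM (1.76-fold, 1.23 to 2.54) and did not pass, nor did Spdef, a goblet and Paneth factor, at 16.2 and 31.1 CPM. Neurog3, which commits cells to the endocrine fate, rose from 19.8 to 109 CPM, and Sox4, which acts early in that lineage, from 181 to 456 CPM. Bhlha15 (Mist1), a factor of the secretory apparatus, rose from 8.69 to 31.8 CPM, and Nupr1, a stress-induced nuclear factor, from 113 to 503 CPM. Among the Notch ligands of secretory cells, Dll4 was 2.56-fold higher (1.74 to 3.80), whereas Dll1 stood at 23.9 and 15.5 CPM and Dll3 at 1.62 and 3.70 CPM. Mfng and Insm1 were the other higher members, while Sox9, Xbp1, Foxa3, Tcf3, Hes6, Klf4 and Creb3l4 were not called and Gfi1 had under 20 UMIs.

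The labels call ENR+CD the Paneth enriched organoid, and secreted PC products were among the most abundant of the higher genes, beside the defensin Gm15284 and the nuclear RNA Malat1. Of 21 measured members, 16 were higher, 3 were lower, the median log2 ratio was 2.34, and the summed level was 13401 CPM in ENR and 56764 in ENR+CD. Itln1, a lectin that binds microbial sugars, stood at 2634 and 18006 CPM, and Lyz1, the Paneth lysozyme, at 2256 and 15646 CPM. Ang4, an antimicrobial ribonuclease, went from 700 to 8243 CPM, 11.8-fold (11.4 to 12.2), and Mmp7, the protease that activates defensins in mice, from 374 to 4334 CPM, 11.6-fold (11 to 12.2).
Steeper ratios were seen for lectins and phospholipases at lower levels. Reg3b and Reg3g, antibacterial lectins, were 34.6-fold (28.9 to 41.8) and 12.5-fold (10.8 to 14.7) higher, Mptx2, a mucosal pentraxin, 14.4-fold, and the phospholipases Pla2g1b and Pla2g2f 15-fold and 12.4-fold. Clps (colipase), at 900 and 1756 CPM, did not reach 2-fold. Spink4, a protease inhibitor of secretory cells, stood at 5078 and 5077 CPM. The 3 lower members were Dmbt1, a scavenger glycoprotein, with 367 UMIs in ENR and 0 in ENR+CD (at least 100-fold lower with 3 UMIs set for ENR+CD), Reg3a, at 23.5 against 2.22 CPM, and Pigr, which carries IgA across epithelium, at 940 against 299 CPM. Members of 1 list thus lay at both ends, from the steep ratio of Reg3b to the absence of Dmbt1 UMIs in ENR+CD.
The symbol prefix did not remove every alpha-defensin. RefSeq lists 13 genes of the table, written there as Gm symbols, as Defa genes, of which 12 were measured and 10 were higher. They summed to 8129 and 51534 CPM. Gm15284 (Defa30 in RefSeq) alone stood at 6269 and 43164 CPM, the largest gain in CPM of any gene compared. Gm14851 (Defa38) stood at 883 and 4289 CPM and Gm15315 (Defa34) at 176 and 1678 CPM. Gm15299 (Defa27), at 383 and 463 CPM, and AY761184, at 1014 and 1244 CPM, were not called. Reads of these near-identical copies may have been split between them, so the values of single copies are uncertain.

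Goblet genes moved less. Of 19 measured, 6 were higher, 2 were lower and the median log2 ratio was 0.32. Tff3, a trefoil peptide, stood at 2154 and 6095 CPM, Guca2a (guanylin) at 512 and 1237 CPM, Fxyd3 at 209 and 785 CPM and Zg16, a lectin of goblet granules, at 21.6 and 77.9 CPM. The mucin Muc2 stood at 56.2 and 70.0 CPM, Fcgbp, which is secreted with it, at 303 and 323 CPM, and Agr2, its folding factor, at 702 and 1273 CPM, and these did not pass. Klk1, a kallikrein protease, was 19.1-fold lower (12.5 to 30.8), and the membrane mucin Muc4 2.38-fold lower.

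Endocrine genes were higher across several lists. Of 18 measured genes of the EEC core, which hold granule proteins and prohormone enzymes, 16 were higher and 0 lower, with a median log2 ratio of 1.76. Chgb (chromogranin B) stood at 1384 and 3532 CPM, Scg2 (secretogranin II) at 47.5 and 325 CPM, and Cpe, the carboxypeptidase that trims hormones, at 55.6 and 317 CPM. Pcsk1n, an inhibitor of prohormone convertase, was 17.9-fold higher (11.7 to 29.0). Chga (chromogranin A), at 299.6 and 598 CPM, lay just under 2-fold, and Vgf stood at 2.63 and 1.97 CPM.
Of 19 measured endocrine transcription factors, 13 were higher and 0 lower (median log2 ratio 1.57). Neurod1, which follows Neurog3, rose from 29.7 to 136 CPM, Etv1 was 8.38-fold higher (5.44 to 13.5), and Pax4 and Pax6, which direct hormone choice, 3.49-fold and 3.56-fold. Isl1, Mnx1, Foxa2, Rfx3 and Lmx1a were not called. Of 21 measured genes of regulated exocytosis, 13 were higher and 0 lower (median log2 ratio 1.56), including Cplx2 (complexin) at 12.9 and 92.9 CPM, Syt13 (a synaptotagmin) at 8.29 and 42.9 CPM, and Snap25, a fusion protein, at 7.89 and 29.8 CPM.
Hormones split in direction, with 7 of 18 measured higher, 4 lower and a median log2 ratio of 0.90. Sct (secretin) rose from 84.9 to 1320 CPM, 15.5-fold (14.1 to 17.2), Gcg (proglucagon) from 402 to 1106 CPM and Pyy 3.21-fold to 64.3 CPM. Gast (gastrin) had 2 UMIs in ENR and 86 in ENR+CD, a ratio of 52.4 (14.1 to 440). Slc18a1, which loads monoamines into granules, rose from 16.4 to 73.7 CPM, whereas its relative Slc18a2 fell from 8.90 to 2.96 CPM. The lower hormones were Sst (somatostatin), at 57.2 against 2.22 CPM, 25.8-fold (13.4 to 57), Nts (neurotensin), at 132 against 52.7 CPM, and Ucn3 (urocortin 3), at 23.3 against 0.986 CPM. Gip stood at 619 and 485 CPM, Cck at 623 and 1120 CPM, Ghrl at 267 and 521 CPM, Tac1 at 322 and 621 CPM and Tph1, which starts serotonin synthesis, at 51.8 and 38.4 CPM, and these were not called. In ENR+CV the summed EEC core stood at 304 CPM, against 2084 and 5870 CPM in the others.

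Enterocyte genes were mostly lower, 22 of 33 measured with 3 higher and a median log2 ratio of -2.14. Fabp1 and Fabp2, which carry fatty acids, stood at 797 and 1101 CPM in ENR and at 25.4 and 96.1 CPM in ENR+CD, 31.4-fold (25.8 to 38.6) and 11.5-fold (10.3 to 12.7) lower. Aadac, a microsomal deacetylase, went from 101 to 0.739 CPM, and Reg1 from 372 to 3.70 CPM, 101-fold (60.8 to 180). Sis (sucrase-isomaltase) fell from 458 to 146 CPM. The apolipoproteins Apoa1, Apoa4 and Apoc3 were 5.70-fold, 22.3-fold and 11.8-fold lower, but Apob stood at 113 and 123 CPM. The 3 higher members were Krt20, a keratin of mature cells, at 43.7 and 127 CPM, Anpep (aminopeptidase N) at 40.03 and 102 CPM, and the P450 enzyme Cyp3a11 at 8.90 and 46.6 CPM.
Cps1 and Otc, enzymes of citrulline synthesis, went from 656 to 14.8 CPM, 44.4-fold (34.4 to 58.3), and from 227 to 7.15 CPM, 31.8-fold (22 to 47.7). Afp (alpha-fetoprotein), with 97.1% of its ENR UMIs in 5% of the cells, went from 297 to 3.20 CPM. Ces2e, a carboxylesterase, went from 163 to 3.20 CPM, Nlrp6, an inflammasome sensor, from 167 to 6.65 CPM, and Kcnn4, a potassium channel, from 66.5 to 1.73 CPM. In ENR+CV these were not uniformly low: Cps1 stood there at 583 CPM, Otc at 126 CPM, Nlrp6 at 180 CPM and Fabp1 at 878 CPM, but Afp at 0.682 CPM.

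ISC genes divided, with 4 of 21 measured higher, 5 lower and a median log2 ratio of 0.07. Olfm4, a secreted glycoprotein of ISCs that depends on Notch, went from 880 CPM (854 to 906) to 2.96 CPM (1.53 to 5.17), 297-fold (170 to 576), the largest fall among genes with at least 100 UMIs and a UMI in both libraries. Aqp4, a water channel, fell from 123 to 5.42 CPM, Clca4 from 683 to 265 CPM and Gkn3 from 42.7 to 13.3 CPM. Prom1, at 151 and 344 CPM, and Mex3a, an RNA-binding protein, at 14.2 and 45.6 CPM, were higher, with Sox4 and Tnfrsf19 described above. Smoc2, a matrix protein of ISCs, stood at 330 and 391 CPM, Slc12a2 at 554 and 430 CPM and Hopx at 167 and 272 CPM. Thus members of 1 marker list ran from a ratio of 11.4 in Tnfrsf19 to the loss of Olfm4.

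Of 37 measured proliferation genes, 12 were lower and 2 higher, with a median log2 ratio of -0.85, and most lay close to the 2-fold line. Mki67 stood at 395 and 195 CPM, 2.03-fold (1.87 to 2.21), Top2a at 383 and 204 CPM, 1.88-fold and not called, and Tk1, a kinase of DNA synthesis, at 78.7 and 23.7 CPM, 3.32-fold (2.65 to 4.20). The replication licensing genes Mcm5 and Mcm7 were lower, while Mcm2, Mcm3, Mcm4 and Mcm6 were not called. The 2 higher members were inhibitors of the cycle, Cdkn1c (p57), at 28.7 and 109 CPM, and Cdkn2a, at 1.01 and 4.44 CPM.
Histone genes were lower more broadly. Of 66 measured, 49 were lower and 3 higher (median log2 ratio -1.65), among them 48 of the 58 with Hist symbols. Hist1h1b, a linker histone, fell from 166 to 39.7 CPM and Hist1h1e from 252 to 110 CPM, whereas Hist1h2bc stood at 174 and 340 CPM. The replacement histones H3f3b, at 788 and 1056 CPM, and H2afz, at 268 and 242 CPM, which are made outside S phase, did not pass. Transcripts of S phase histones mostly lack a poly(A) tail, so the capture beads take only part of them.

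Glycolytic genes were lower in ENR+CD as a group. Of 21 measured, 13 were lower, 1 was higher and the median log2 ratio was -1.46. Ldha, which reduces pyruvate to lactate, stood at 1819 and 386 CPM, with 1616 CPM in ENR+CV, 4.71-fold lower in ENR+CD (4.46 to 4.97). Aldoa stood at 1273 and 361 CPM, Tpi1 at 901 and 298 CPM, Eno1 at 455 and 88.0 CPM, and Pgk1 at 208 and 51.8 CPM. Slc16a3, a lactate exporter, was lowest in relative terms, at 73.6 against 8.87 CPM, 8.30-fold (5.88 to 12). Pkm, at 802 and 509 CPM, Hk2, at 67.1 and 104 CPM, and the glucose carrier Slc2a1, at 34.0 and 20.5 CPM, were not called, and Ldhb, at 2.02 and 7.15 CPM, was the higher member.
Outside the list, Car9, a carbonic anhydrase often used as a sign of low oxygen, stood at 114 and 5.18 CPM, and Ero1l, an oxidase of the ER, at 195 and 42.4 CPM, with 234 CPM in ENR+CV. Car9 was chosen after its values were seen.
Metal and redox genes held 6 lower and 2 higher among 29 measured, with a median log2 ratio of -0.08. The metallothioneins Mt1 and Mt2, which bind zinc and copper, stood at 2019 and 1249 CPM in ENR, at 308 and 125 in ENR+CD, and at 1854 and 884 in ENR+CV, Mt1 being 6.55-fold (6.17 to 6.95) lower in ENR+CD. The zinc carrier Slc39a5 fell from 51.8 to 2.22 CPM, whereas Slc39a4, the main zinc importer of the gut, rose from 27.1 to 65.1 CPM and Slc30a2 from 8.49 to 41.4 CPM. Fth1 (ferritin) at 1185 and 1495 CPM and Prdx1 at 1700 and 2196 CPM did not pass.

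Promoters are shown for Ldha and Pgk1, with the core ACGTG of the hypoxia response element in capitals, and for Mt1 and Mt2, with the metal response element TGCACNC or TGCGCNC in capitals, as examples chosen after the search among called members with more than 1 match. Both strands were searched, and ACGTG also lies within the E-box CACGTG, so that a palindrome counts on each strand, as it does at 2 of the places in Ldha.
Ldha (chr7:46845554-46845853, plus strand): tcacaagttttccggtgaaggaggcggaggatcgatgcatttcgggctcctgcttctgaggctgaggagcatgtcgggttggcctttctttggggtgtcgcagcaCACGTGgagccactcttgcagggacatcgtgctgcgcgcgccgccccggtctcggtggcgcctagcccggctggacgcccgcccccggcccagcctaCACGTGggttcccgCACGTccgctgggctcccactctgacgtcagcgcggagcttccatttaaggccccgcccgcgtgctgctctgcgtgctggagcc
Pgk1 (chrX:106186850-106187149, plus strand): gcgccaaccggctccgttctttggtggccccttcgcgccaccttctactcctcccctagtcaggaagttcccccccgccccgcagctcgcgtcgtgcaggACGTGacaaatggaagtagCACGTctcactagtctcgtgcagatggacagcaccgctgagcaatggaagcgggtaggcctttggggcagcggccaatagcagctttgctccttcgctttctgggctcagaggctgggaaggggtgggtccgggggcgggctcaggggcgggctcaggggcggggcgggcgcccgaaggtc
Mt1 (chr8:94178839-94179138, plus strand): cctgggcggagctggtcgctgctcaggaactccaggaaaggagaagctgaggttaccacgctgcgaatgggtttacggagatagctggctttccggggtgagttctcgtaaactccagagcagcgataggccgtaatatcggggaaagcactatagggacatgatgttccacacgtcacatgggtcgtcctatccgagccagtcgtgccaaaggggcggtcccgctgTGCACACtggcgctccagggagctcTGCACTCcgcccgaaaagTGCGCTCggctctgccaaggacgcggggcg
Mt2 (chr8:94172368-94172667, plus strand): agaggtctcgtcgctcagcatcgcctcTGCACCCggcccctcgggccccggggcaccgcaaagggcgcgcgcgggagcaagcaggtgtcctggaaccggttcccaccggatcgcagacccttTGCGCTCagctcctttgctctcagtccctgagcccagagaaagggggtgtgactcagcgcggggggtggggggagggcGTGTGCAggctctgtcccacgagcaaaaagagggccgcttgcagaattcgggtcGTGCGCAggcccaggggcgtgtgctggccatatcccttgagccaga
All 21 measured glycolytic genes had a promoter entry, and 14 (66.7%) held ACGTG, against 21.8% of 27025 RefSeq genes. Of 26 matched metal and redox genes, 13 (50%) held the metal element, against 28.2%. Among measured genes the shares were higher than in RefSeq, at 29.6% for ACGTG and 40.8% for the metal element, but 9495 of 12186 had an entry, which is under 80%, so that this check is void and no excess is read from either share. Matches to the metal element lay in genes of every call: Slc30a2, which was higher, Slc39a5, which was lower, and Gclm, which was neither. ACGTG lay in lower genes such as Ldha and Pgk1, and also in Hk1, Hk2, Pfkm, Aldoc, Pgam1, Pkm and Slc2a1, which were not called. Whether either element goes with the calls was not tested.

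Genes of the regenerative and foetal-like epithelium were higher in 12 of 21 measured cases and lower in 2 (median log2 ratio 1.33). Clu (clusterin), a secreted chaperone, stood at 11.9 and 683 CPM, with 3.07 CPM in ENR+CV, 57.2-fold higher (44.2 to 75.4). Anxa1, an annexin, rose from 17.8 to 194 CPM, S100a6, a calcium-binding protein, from 166 to 965 CPM, and Cldn4, a tight junction protein, from 82.1 to 552 CPM. Spp1 (osteopontin) had no UMI in ENR and stood at 22.9 CPM in ENR+CD. Ly6a (Sca1), the usual marker of this state, was 4.36-fold higher (3.59 to 5.31). Areg, Ereg and Anxa2 were not called, and Ly6d and Sprr2a3 were lower.
Of 18 measured chemokine and complement genes, 10 were higher and 2 lower (median log2 ratio 1.38). Ccl2, which draws monocytes, had no UMI in ENR or ENR+CV and stood at 31.5 CPM in ENR+CD, and the neutrophil chemokines Cxcl1 and Cxcl2 had 1 UMI each in ENR against 18.2 and 20.2 CPM. Cfi, a complement protease, rose from 27.7 to 329 CPM. Il33, an alarmin, rose from 1.21 to 55.9 CPM. The direction was opposite for Ccl25, the chemokine that small intestinal epithelium makes for T cells, which fell from 484 to 21.4 CPM, 22.6-fold (18.2 to 28.3), and for Ccl28, at 15.4 against 1.48 CPM.
Among 20 measured antigen presentation and interferon genes, 7 were higher and 1 lower (median log2 ratio 0.71). Beside Ifitm1, its relative Ifitm3 stood at 220 and 892 CPM, but Ifitm2 at 388 and 655 CPM was not called. Cd74, the invariant chain of MHC class II, had no UMI in ENR and 47 in ENR+CD. The class I genes B2m, H2-K1 and H2-D1 differed by less than 1.6-fold.

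Of 16 measured BMP and Id genes, 6 were higher and 1 lower, with Id3, an inhibitor of helix-loop-helix factors, at 65.3 and 334 CPM, Id1 at 67.9 and 143 CPM and Bmp2 at 8.29 and 3.20 CPM. The shares called in the next groups lay near or under those of all genes (12.5% higher and 7.63% lower), with the lower sterol genes just above. Of 33 ER folding genes, 3 were higher and 1 lower (median log2 ratio 0.56): Hspa5 (BiP) stood at 674 and 1039 CPM and Ern1, a sensor of unfolded protein, at 9.71 and 27.4 CPM, while Ero1l was the lower member. Of 25 sterol synthesis genes, 1 was higher and 3 were lower, with Mvd, which makes isopentenyl pyrophosphate, at 45.9 and 18.7 CPM and Lss, which closes the sterol rings, at 52.8 and 25.6 CPM among the lower. Of 20 EGF and Eph family genes, 2 were higher and 1 lower, the latter being Efna1 at 78.5 and 22.2 CPM. Of 8 measured tuft cell genes, 0 were called in either direction.

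Measures of RNA quality and handling moved with the libraries, and their part in the results above was not tested. Mitochondrially encoded genes took 17.0% of the ENR UMIs outside Defa genes, 9.70% of those of ENR+CD and 3.90% of those of ENR+CV, and mt-Rnr2, the large mitochondrial rRNA, stood at 121982 and 64528 CPM. Malat1, a nuclear RNA, stood at 3646 and 11325 CPM, and Rn7sk, a small nuclear RNA, at 1033 and 349 CPM. Of 84 ribosomal protein genes, 0 were higher and 3 lower (median log2 ratio -0.37), and of 90 nuclear respiratory chain genes, 0 were higher and 5 lower (-0.41). Of 21 genes induced by dissociation, 5 were higher and 0 lower (median log2 ratio 0.70), with Atf3 at 67.3 and 358 CPM, Ier3 at 21.0 and 106 CPM and Fos at 380 and 516 CPM, the last not called. Of 17 epithelial genes, 0 were higher and 4 lower (median log2 ratio -0.05), where 7.63% of all measured genes were lower. The 4 were Lgals4, Cdh17, Hnf4a and Cldn15.

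**Figure D3:**
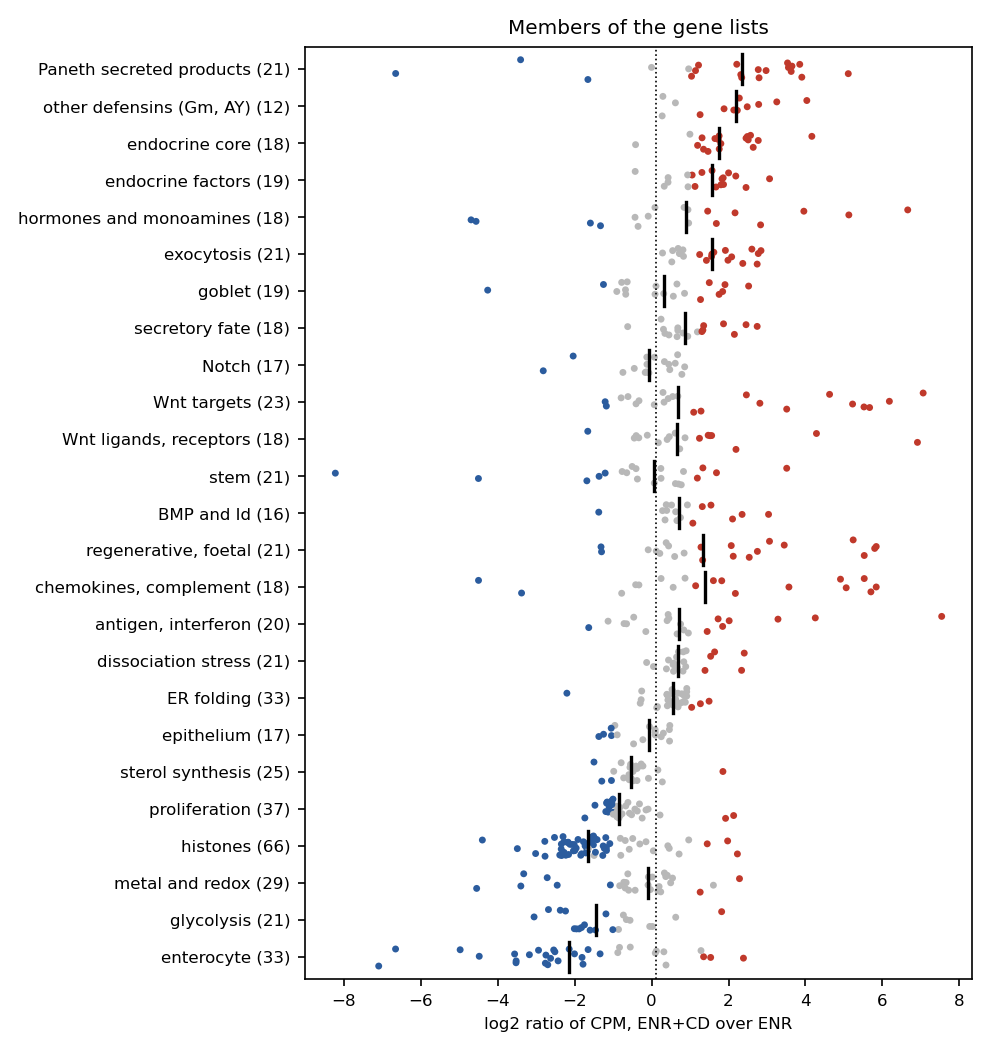
Each point is a measured member of a gene list, with its log2 ratio of CPM (ENR+CD over ENR) on the x axis, red where called higher, blue where called lower and grey where neither, a library under 3 UMIs set to 3, and the number of measured members in brackets. The black bars are list medians and the dotted line is the median of all measured genes at 0.11, and the endocrine, Paneth and regenerative lists lie right of it while the enterocyte, histone and glycolysis lists lie left.

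The 2 libraries differed in how much defensin their cells held, so the genes were also compared between cells in the same range of defensin content. In ENR, 2086 cells (82.0%) gave under 5% of their UMIs to Defa genes, 395 gave 5% to under 20% and 64 gave 20% or more, against 650 (27.3%), 1447 and 286 cells in ENR+CD. These are ranges cut from a readout, not cell types, and within the lowest range the median cell still gave 0.460% in ENR and 1.26% in ENR+CD. In the middle range the median cell gave 8.30% in ENR and 11.8% in ENR+CD, and in the highest 25.6% and 24.7%. Ratios within the 2 lower ranges thus still hold a difference in defensin content. Among cells under 5%, 13.3% of 11341 measured genes were higher and 6.67% lower, with a median log2 ratio of 0.20. Of the 1528 higher genes, 1261 were measured in that range and 1122 were called higher there. Of the 930 lower genes, 915 were measured and 657 were called lower. In the middle range, where 8.47% of 9976 genes were higher and 5.13% lower, 622 of 1213 measured higher genes and 406 of 601 measured lower genes were called the same way. In the highest range 2.47% of 3525 genes were higher and 3.29% lower, and 52 of 323 and 67 of 154 were called the same way. There, 4 genes higher over all cells were called lower, namely Gm9765, Mptx1 and the defensins Gm6696 and Gm7861.

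Lyz1 and Ang4 differed less between cells in the same defensin range than between whole libraries. This did not hold for Mptx2 (26.7-fold, 20.2 to 35.8) or Mmp7 among cells under 5%. The 6.93-fold (6.80 to 7.08) difference of Lyz1 was 2.57-fold (2.44 to 2.70) among cells under 5%, 2.19-fold among cells of 5% to under 20% and 1.94-fold (1.86 to 2.02) among cells of 20% or more. Gm15284 was 2.97-fold, 2.21-fold and 1.43-fold higher in the 3 ranges, against 6.89-fold (6.80 to 6.97) over all cells. Gm15284 is itself a defensin, so ranges of defensin share were bound to narrow its ratio, and nothing is read from that. Ang4, at 5.66-fold, 3.76-fold and 2.64-fold (2.47 to 2.82), and Mmp7, at 12.2-fold, 4.02-fold and 2.45-fold (2.20 to 2.73), stayed above 2-fold in each range, so that cells of 20% or more held 24926 CPM of Ang4 in ENR+CD and 9452 CPM in ENR.
Some goblet and Paneth genes turned within the ranges. Spink4, level over all cells, was 2.28-fold lower in ENR+CD among cells under 5% (2587 against 1135 CPM), 2.80-fold lower in the middle range (16191 against 5782 CPM) and 2.72-fold lower at 20% or more (38501 against 14150 CPM). Of the 9728 genes not called over all cells, 5 were called lower in all 3 ranges. They were Spink4, AY761184, Ccl9, Car8 and Ccl6. Muc2 was 2.60-fold and 2.53-fold lower in the 2 upper ranges, while Clps stood 1.63-fold and 1.9-fold under ENR there and was not called. Tff3, 2.83-fold higher over all cells, had ratios of 1.61, 1.16 and 1.083 in the ranges. Of the 796 higher genes with at least 100 UMIs, 31 were called in no range. Tff3 had most UMIs of these, which included Guca2a, Cd63 and Lyz2.

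Endocrine genes differed in how their ratio ran over the ranges. Chgb was 3.44-fold (3.32 to 3.56) higher among cells under 5% and 2.90-fold in the middle range, with a ratio of 1.44 (1.15 to 1.82) at 20% or more and 2.55 over all cells. Chga passed the 2-fold line in the 2 lower ranges, at 2.50-fold and 3.07-fold, with a ratio of 0.876 (0.57 to 1.39) at 20% or more. The ratio of Gcg ran the other way, at 3.37-fold, 4.42-fold and 20-fold (6.76 to 97.4) higher, the last against only 30.5 CPM (6.29 to 89.1) in ENR. The level of Gcg fell over the ranges in both libraries, at 1478, 966 and 609 CPM in ENR+CD and 439, 218 and 30.5 CPM in ENR. Sct was 17.3-fold, 14.3-fold and 13.4-fold (6.10 to 36.8) higher, and Ifitm1 was 198-fold (132 to 310) higher among cells under 5%. Nkd1 stood at 161 CPM in ENR+CD cells under 5%, 155 CPM in the middle range and 60.6 CPM at 20% or more, and Clu at 738, 713 and 359 CPM. Both were thus lower in the ENR+CD cells richest in defensin, but secreted Paneth products took 158074 CPM there against 14285 under 5%. Epcam and Malat1 also fell between these ranges, from 1494 to 941 and from 12873 to 7012 CPM. Whether Nkd1 and Clu fell beyond this was not tested. S100a6 was 6.03-fold, 6.25-fold and 7.26-fold (3.63 to 17.0) higher, and Thbs1, a matrix glycoprotein, 27.3-fold, 8.21-fold and 5.66-fold (3.03 to 11.9).
Ldha, Mt1, Cps1 and Olfm4 were lower in every range. Ldha was 4.23-fold, 4.55-fold and 4.31-fold lower in ENR+CD, Mt1 7.10-fold, 6.07-fold and 4.70-fold, and Cps1 36.0-fold, 38.1-fold and 43.0-fold. Olfm4 stood at 914, 757 and 234 CPM in ENR and at 3.53, 2.28 and 4.49 CPM in ENR+CD. In all, 47 genes were called higher and 63 lower in all 3 ranges. At most 3525 genes could be, the number measured in the highest range, where 2.47% were higher and 3.29% lower. Malat1, Ang4 and Mmp7 held most UMIs among the 47, and Spink4, Mt1 and Ldha among the 63. Mki67 stood 1.63-fold, 1.75-fold and 1.61-fold under ENR and was called in no range.

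**Figure D4:**
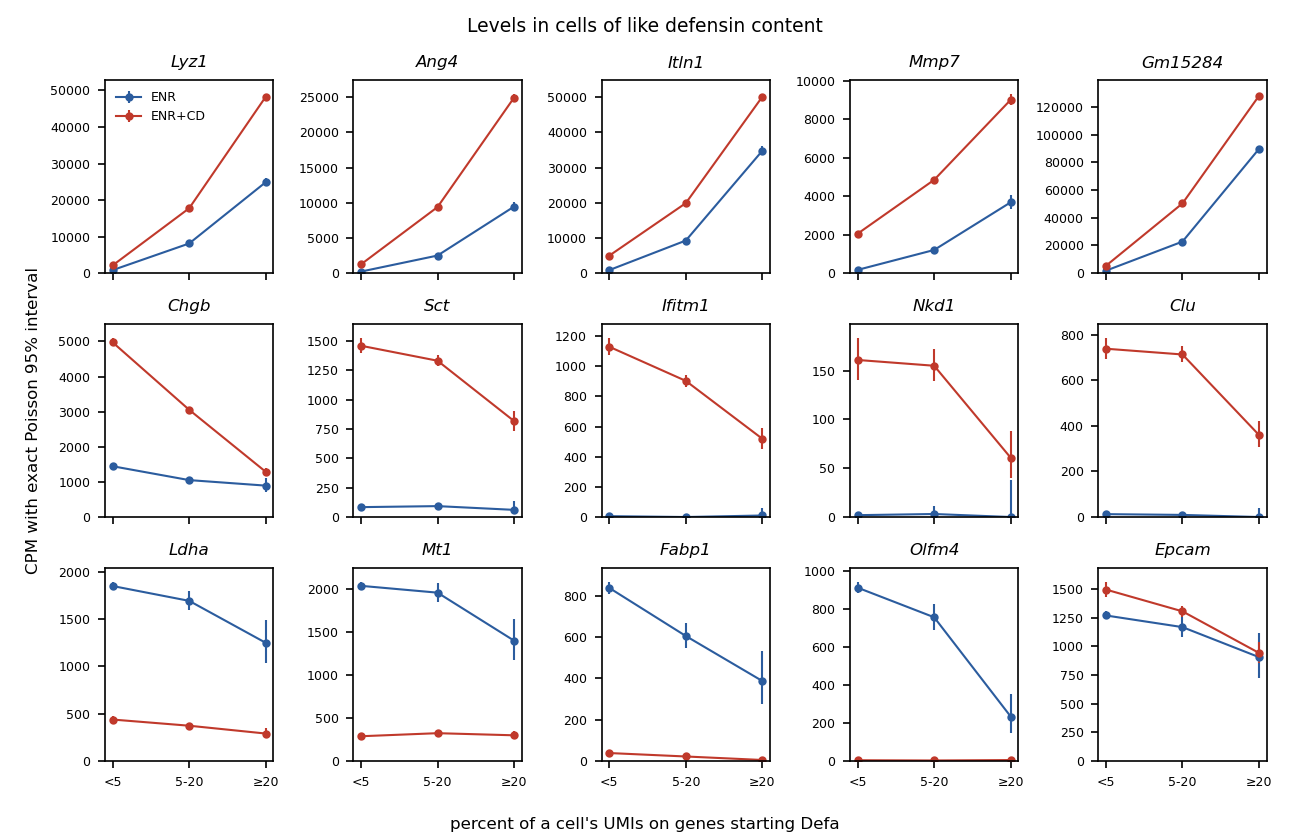
CPM of 15 genes (y axes, linear from 0, with exact Poisson 95% intervals) in cells that gave under 5%, 5% to under 20%, and 20% or more of their UMIs to Defa genes (x axes), in ENR (blue) and ENR+CD (red). Lyz1, Ang4 and Gm15284 (itself a defensin) climb with the defensin share in both libraries, Chgb, Ifitm1 and Clu are highest in ENR+CD cells of low share, and Ldha, Mt1, Fabp1 and Olfm4 lie lower in ENR+CD in each range.

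Genes differed in how evenly they were spread over cells. The 5% of cells holding most of a gene held 21.0% of the Epcam UMIs in ENR and 21.8% in ENR+CD. The share rises as a gene's count falls, so genes are compared at like counts. In ENR+CD, Rgs5 with 235 UMIs had 88.1% in those cells, Cdh13 with 232 UMIs 73.3%, and Gm12524 with 242 UMIs 53.7%. Likewise Neb with 577 UMIs had 59.4%, Sbspon with 566 UMIs 52.1% and Nkd1 with 595 UMIs 44.2%. Ifitm1 and Clu, with 3816 and 2770 UMIs, had 31.3% and 32.8%, against 67.1% for Gcg with 4488 UMIs. Ifitm1 thus lay between Gcg and Krt18, which had 21.3% with 4196 UMIs. In ENR, Afp with 1471 UMIs had 97.1%, against 84.7% for Chga with 1482 UMIs and 31.6% for Hmgcs1 with 1435 UMIs.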

How the data were processed

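Seq-Well libraries of ENR, ENR+CD and ENR+CV organoids were analysed, 1 library per medium. The authors demultiplexed with bcl2fastq, aligned to mm10 (STAR and Seurat are also named in the submitters' processing notes, versions not given in the sources used here), binned reads by cell barcode and collapsed them by UMI. The deposited merged table holds raw UMI counts of cells above 1000 UMIs, and the deposited per-sample tables hold raw UMI counts and read counts. Merged cells were matched to the per-sample tables by their whole count vectors, and 0 columns were of unknown origin.

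UMIs of kept cells were summed per library and scaled to 1000000 outside the Defa genes. A gene was called where its levels differed by 2-fold or more, its exact Poisson 95% intervals were separate and both libraries together held 20 or more UMIs. A floor of 3 UMIs per library stood in for lower counts in log2 ratios and in bounds for genes at 0. Named genes were the 15 largest ratios each way (at least 100 UMIs), the 15 largest CPM differences each way, 4 members with most UMIs and 2 called members farthest from 0 of each list, all Wnt target, Notch and secretory fate members, and Epcam. Some genes that the rule names are not reported here. Members of lists given beyond these were chosen after their values were seen. The comparison and the 33 lists were chosen with earlier results of these data known. Gene positions come from GENCODE vM21 (238 of 242 named genes had 1 position) and promoters from RefSeq. Alternatives changed the total, the scaling, the filters, the cells, the counts used and the label reading. Python 3.11.15, NumPy 2.4.6, SciPy 1.17.1, pandas 2.3.3, Matplotlib 3.10.9, R 4.3.3 and edgeR 4.0.16 (TMM only) were used.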

Additional observations from a re-analysis of the deposited data

How the results depend on the processing

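Under 13 of the 14 alternatives, those that keep the library names of the merged table, 0 called genes among the named ones changed sign. The counts of higher and lower genes stayed within 1.5 times of 1528 and 930 except for a 1.5-fold line (2423 and 1671) and a minimum of 100 UMIs (796 and 599). The median log2 ratio of all measured genes moved to -0.0071 with the Defa genes left in the total, 0.25 with the other defensins and secreted Paneth products also taken out, -0.077 with mitochondrial and ribosomal protein genes also taken out, -0.019 under TMM scaling and 0.29 with no minimum of UMIs. With the per-sample deposit of the ENR+CD label taken as ENR+CD, which holds the merged ENR+CV cells, the median was 0.31, 1753 genes were higher and 708 lower, 512 and 287 of them shared with the comparison above, and log2 ratios against ENR of the other sign were found for 48 called genes, namely Aldoa 0.36, Ang4 -4.04, Aqp4 0.069, Ascl2 0.15, AY761185 -5.87, Bhlha15 -0.67, Cdh17 0.17, Cfi -0.37, Chgb -4.09, Clu -1.96, Cox6b2 2.82, Cpe -2.49, Efnb2 -1.06, Ero1l 0.26, Etv1 -1.25, Fabp1 0.14, Fer1l6 -0.053, Fxyd3 -0.77, Gcg -8.62, Gm14851 -6.95, Gm15284 -3.80, Gm15293 -3.09, Gm15315 -4.31, Guca2a -3.30, Insm1 -0.76, Itln1 -1.53, Lyz1 -1.34, Mmp7 -1.63, Mptx2 -3.49, mt-Tc 4.13, mt-Tl1 0.44, Neurod1 -0.99, Nlrp6 0.11, Nrarp 0.63, Nupr1 -0.93, Pcsk1n -0.25, Pfkp 0.18, Rab3c -3.18, Rfx6 -2.26, Rimbp2 -1.09, Rn7sk 1.18, S100a6 -0.023, Scg2 -2.37, Sct -1.60, Slc16a3 1.38, Tff3 -2.43, Tpi1 0.52 and Uqcrq 0.38. This is a comparison of other cells. No paired analysis was possible because each medium had 1 library and the labels give no replicate numbers. At the median depth of 1543 to 1553 UMIs per cell, low genes can be read only as sums over cells, and a gene with 0 UMIs in a library may stand at up to 3 UMIs there.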

Other observations

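Genes outside the lists also moved by large ratios. Those given here were chosen after their values were seen. Among secreted proteins, Lect2, a hepatokine, rose from 6.87 to 247 CPM, 36.0-fold (25.6 to 52.3), Igfbp2, which binds insulin-like growth factors, from 6.67 to 153 CPM, and Thbs1, a matrix glycoprotein, from 35.0 to 668 CPM. Kitl (stem cell factor) rose from 53.8 to 199 CPM and its receptor Kit from 21.6 to 74.4 CPM. Cyp2c55 and Cyp2e1, P450 enzymes, rose from 38.6 to 318 CPM and from 6.47 to 94.9 CPM, and Rdh10, a retinol dehydrogenase, from 33.2 to 291 CPM.

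In the other direction, Khk and Fbp1, enzymes of fructose use and gluconeogenesis, fell from 201 to 17.7 CPM and from 41.2 to 3.70 CPM. Vdr, the vitamin D receptor, fell from 76.0 to 10.6 CPM, 7.17-fold (5.22 to 10.1), Myb, a progenitor transcription factor, from 117 to 26.9 CPM, and the chloride channel Cftr from 131 to 36.2 CPM. Pycard, the inflammasome adaptor, fell from 406 to 63.3 CPM. In ENR+CV, Khk stood at 117 CPM, Vdr at 86.0 CPM, Cftr at 137 CPM and Pycard at 214 CPM.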
